A study of Mus musculus with 12 samples.

Results

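Toll-like receptors are membrane proteins with which cells of innate immunity recognise microbial molecules and some molecules set free from damaged tissue. Tlr1, Tlr2, Tlr4, Tlr5 and Tlr6 act mainly at the cell surface, where Tlr2 pairs with Tlr1 or Tlr6 to bind bacterial lipopeptides, Tlr4 responds to lipopolysaccharide and Tlr5 to flagellin. Tlr3, Tlr7, Tlr8, Tlr9 and Tlr13 act in endosomes and sense nucleic acids. Most of these receptors signal through the adaptor Myd88, and Tlr3 through Ticam1, to NF-kB and interferon regulatory factors, and microglia, the resident macrophages of the central nervous system, are known to carry many of them. The 10 receptor genes Tlr1 to Tlr9 and Tlr13 were taken by symbol from the deposited expression table, in which each symbol had a single Ensembl identifier. They were 10 of 49585 genes, and all 10 were among the 18451 genes with enough counts to be tested.

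The study sequenced polyadenylated RNA of nuclei pulled down with an antibody to green fluorescent protein, described as microglia-specific, from spinal cords of C57BL/6 mice. The 4 groups were sham-operated mice, whose labels give day 7, and mice at 3, 7 and 14 days after spinal cord injury, with 3 libraries each. All libraries came from the same nuclear isolation procedure. Each held tissue from 3 pooled animals, taken near the lesion in injured mice, so replicates measure the spread between pools. Which promoter or allele carried the fluorescent tag, the age of the mice and the type of injury are not given in the labels.

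Total counts were 4003480 to 10670804 per library, and replicate libraries correlated across genes at Pearson's r = 0.880 to 0.979 (log2 CPM). Sham replicate 4 stood apart from the other sham libraries: its 10 astrocyte markers summed to 5114 CPM, against 628 and 1527 CPM in sham replicates 2 and 3, and its correlations with them were 0.880 and 0.911. Among sham libraries its sums of neuron markers (3404 CPM) and of fibroblast and pericyte markers (533 CPM) were the highest too. It also held the highest Tlr3, Tlr4, Tlr7 and Tlr8 levels of all 12 libraries, so values without it are given beside the results it touches. The 7 microglial identity genes P2ry12, Tmem119, Sall1, Cx3cr1, Csf1r, Fcrls and Siglech were present in every library and summed to 3866 to 4942 CPM in sham, 2548 to 3027 CPM at 3 days, 3281 to 4189 CPM at 7 days and 2648 to 3229 CPM at 14 days. Of the 7, 2 fell at 3 days (P2ry12 and Siglech), none passed at 7 days and 3 fell at 14 days (Sall1 in addition). The pools differed in sex within groups: Xist varied between 0.891 and 23672 CPM and 4 Y-linked genes summed to 0.384 to 746 CPM. In bulk RNA, fewer cells of a type and less RNA per cell cannot be told apart.

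Across the time course, 4 receptor genes changed in edgeR's quasi-likelihood test (adjusted p under 0.05 over all tested genes) and 6 did not pass at any time against sham. Tlr2 rose at 3, 7 and 14 days, Tlr1 rose at 7 days, Tlr5 fell at 3, 7 and 14 days, and Tlr3 fell at 7 and 14 days. Those 4 genes also passed the test of any difference between the 4 groups, which 26.4% of all tested genes passed. At 3 days against sham 2 of 10 receptor genes passed, 1 in each direction, beside 20.0% of all tested genes (10.9% higher and 9.17% lower). At 7 days against sham 4 of 10 passed, 2 in each direction, beside 9.28% of all tested genes (4.61% higher and 4.67% lower). At 14 days against sham 3 of 10 passed, 1 higher and 2 lower, beside 9.82% of all tested genes (5.02% higher and 4.79% lower). The median log2 fold change over the 10 genes was -0.39 at 3 days, -0.27 at 7 days and -0.27 at 14 days, against medians of -0.03, 0.01 and -0.05 over all tested genes at the same times. Without sham replicate 4, the fold changes of Tlr3, Tlr4 and Tlr7 were smaller in size at each time. Those of Tlr8 turned positive, so the medians over the 10 genes rest in part on that library. The share of receptor genes that passed at 3 days equals that of all tested genes.

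**Figure D1:**
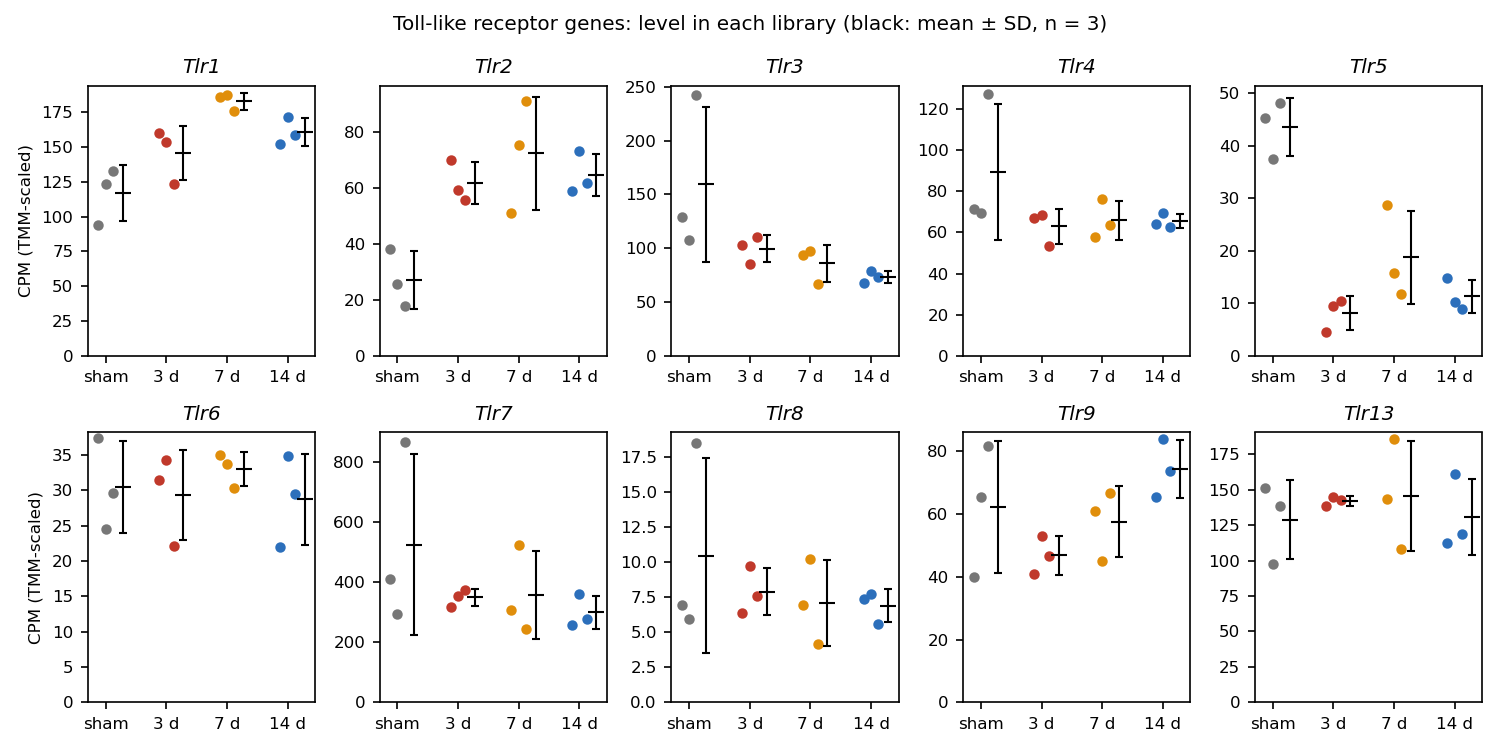
Level of each Toll-like receptor gene in CPM (linear axes from 0, scaled per gene) in each of the 12 libraries, with sham and 3, 7 and 14 days after injury from left to right; black marks are means ± SD of 3 libraries. The Tlr2 points at all 3 times lie above those of sham (17.6 to 38.0 CPM) and the Tlr5 points at all 3 times lie below those of sham (37.5 to 48.2 CPM).

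The start regions of the 4 genes that changed are shown as sequence, and a link to the direction of change was not tested. RefSeq promoter windows (GRCm38.p6, 250 bases before to 50 after the annotated start, written 5′ to 3′ on the gene's strand) were found for 8 of the 10 genes, and Tlr1 had 2 of them, of which the one farther upstream is printed. Capitals mark matches to the 4 motifs searched on both strands: the NF-kB consensus, TGANTCA (bound by AP-1 factors), GAGGAA (the core bound by the myeloid factor Spi1) and TATAAA.
Tlr2, chr3:83841559-83841858, minus strand: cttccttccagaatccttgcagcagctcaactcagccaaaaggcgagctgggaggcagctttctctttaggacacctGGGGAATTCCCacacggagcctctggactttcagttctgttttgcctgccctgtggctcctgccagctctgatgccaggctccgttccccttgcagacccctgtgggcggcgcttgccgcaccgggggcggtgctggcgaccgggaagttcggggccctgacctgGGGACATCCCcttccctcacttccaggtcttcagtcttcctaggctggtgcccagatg
Tlr1, chr5:64933509-64933808, minus strand: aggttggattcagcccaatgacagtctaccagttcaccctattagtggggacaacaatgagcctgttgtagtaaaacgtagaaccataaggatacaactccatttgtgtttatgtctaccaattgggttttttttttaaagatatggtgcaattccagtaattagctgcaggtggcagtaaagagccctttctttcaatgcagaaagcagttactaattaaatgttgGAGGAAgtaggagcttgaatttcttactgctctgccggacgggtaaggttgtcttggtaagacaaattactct
Tlr3, chr8:45410331-45410630, minus strand: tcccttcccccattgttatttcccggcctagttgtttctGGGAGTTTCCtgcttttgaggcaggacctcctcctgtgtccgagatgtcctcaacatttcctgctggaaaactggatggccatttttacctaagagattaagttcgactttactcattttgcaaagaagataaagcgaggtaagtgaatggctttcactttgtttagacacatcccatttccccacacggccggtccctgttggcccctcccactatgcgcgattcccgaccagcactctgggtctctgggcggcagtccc
Tlr5, chr1:182954538-182954837, plus strand: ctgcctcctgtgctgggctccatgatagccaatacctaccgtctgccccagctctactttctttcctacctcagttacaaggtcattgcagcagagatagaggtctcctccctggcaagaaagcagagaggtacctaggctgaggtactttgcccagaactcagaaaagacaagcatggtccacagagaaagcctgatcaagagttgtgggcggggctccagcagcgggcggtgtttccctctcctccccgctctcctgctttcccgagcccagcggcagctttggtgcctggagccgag
The Tlr2 window held 3 matches to the NF-kB consensus, which begin at -173, -172 and -8 from the start, the first and the second overlapping. The Tlr3 window held 1 such match, at -211, and the Tlr1 window held GAGGAA at -23. None of the 4 motifs was found in the Tlr5 window or in the Tlr1 window that is not printed. Receptor genes that did not pass held matches too: GAGGAA in Tlr8, Tlr9 and Tlr13, TGANTCA in Tlr9, and TATAAA in Tlr6 and Tlr8. Of 32851 RefSeq windows of the same length, 8.46% held at least 1 match to the NF-kB consensus, 7.81% TGANTCA, 28.3% GAGGAA and 13.6% TATAAA. These matches describe letters and are not evidence of binding.

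Tlr2 (ENSMUSG00000027995; GRCm38 chr3:83836272-83841767, minus strand, 3 exons) is the shared partner of the lipopeptide receptors. It was measured at 38.0, 25.8 and 17.6 CPM in the sham libraries, at 69.9, 59.3 and 55.7 CPM at 3 days, at 50.9, 75.2 and 90.9 CPM at 7 days and at 58.9, 72.9 and 61.7 CPM at 14 days. Every injured library lay above every sham library, and the lowest injured value was in 7 days replicate 1. The log2 fold change against sham was 1.17 ± 0.27 (SE) at 3 days (edgeR adjusted p = 0.00716), 1.40 ± 0.27 at 7 days (adjusted p = 0.00616) and 1.23 ± 0.27 at 14 days (adjusted p = 0.00992). Without sham replicate 4, the lowest sham library for this gene, these became 0.91, 1.17 and 0.99 and kept adjusted p under 0.05 (0.0158, 0.0101 and 0.0139 by edgeR). Between the injured times Tlr2 did not pass a test: the log2 difference was 0.24 ± 0.26 at 7 days against 3 days, 0.07 ± 0.26 at 14 days against 3 days and -0.17 ± 0.26 at 14 days against 7 days.

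Tlr1 (ENSMUSG00000044827; chr5:64924679-64933563, minus strand) encodes the partner of Tlr2 for triacylated lipopeptides. Its libraries read 94.0, 123.4 and 133.0 CPM in sham, 159.7, 153.7 and 123.6 CPM at 3 days, 185.6, 187.0 and 175.7 CPM at 7 days and 152.1, 171.3 and 158.4 CPM at 14 days. The libraries at 7 and 14 days lay above all sham libraries, while 1 library at 3 days fell within the sham range. Tlr1 rose by 0.65 ± 0.16 on the log2 scale at 7 days (edgeR adjusted p = 0.0249), with 0.32 ± 0.16 at 3 days (adjusted p = 0.184) and 0.46 ± 0.16 at 14 days (adjusted p = 0.0911). Leaving out sham replicate 4 gave 0.74 at 7 days (adjusted p = 0.0136) and 0.55 at 14 days (adjusted p = 0.0365), while leaving out any 1 of the 7-day libraries gave an adjusted p of 0.0533 to 0.0676 at 7 days. The rise at 7 days also lost its call without 14 days replicate 1 or 14 days replicate 3 (adjusted p = 0.0527 and 0.0518).

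Tlr6 (ENSMUSG00000051498; chr5:64952031-64960097, minus strand), the partner of Tlr2 for diacylated lipopeptides, lies 18467 bases from Tlr1. It ranged between 24.5 and 37.4 CPM in sham, 22.1 and 34.3 CPM at 3 days, 30.4 and 35.0 CPM at 7 days and 22.0 and 34.8 CPM at 14 days. Its libraries overlapped those of sham at each time, with log2 fold changes of -0.07 ± 0.24, 0.11 ± 0.24 and -0.10 ± 0.24 at 3, 7 and 14 days. Tlr1 and Tlr6 share an identical run of 229 bases, and 15.4% and 12.3% of the 50-base words of Tlr1 and Tlr6 transcripts occur in other genes, mainly in each other. How reads that match both were counted is not given in the sources used here, so the split between them is uncertain. In RPKM, the deposited value per kilobase of gene, Tlr1 stood 2.80 to 5.62 times as high as Tlr6 in sham, 4.99 to 6.23 times at 3 days, 5.91 to 6.45 times at 7 days and 5.48 to 7.70 times at 14 days.

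Tlr4 (ENSMUSG00000039005; chr4:66827584-66930284, plus strand), the lipopolysaccharide receptor, did not pass at any time. The sham libraries held 71.3, 69.3 and 127.4 CPM, and the injured libraries held 53.2 to 68.4 CPM at 3 days, 57.8 to 76.1 CPM at 7 days and 62.8 to 69.4 CPM at 14 days. All 3 libraries at 3 days were below all sham libraries, the nearest by under 1 CPM. The log2 fold changes were -0.50 ± 0.23 (edgeR adjusted p = 0.129), -0.44 ± 0.23 (0.235) and -0.45 ± 0.23 (0.231) at 3, 7 and 14 days, and -0.19, -0.10 and -0.12 without sham replicate 4. The ratio of Tlr2 to Tlr4 in RPKM was 1.60 to 1.93 at 3 days, 1.62 to 2.64 at 7 days and 1.70 to 1.94 at 14 days, against 0.255 to 0.982 in sham. Tlr4 was thus the higher of the pair per length in every sham library and Tlr2 in every injured library. The lowest sham ratio came from replicate 4, and with 3 libraries a group an exact permutation test of the ratio cannot go below p = 0.1.

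Tlr5 (ENSMUSG00000079164; chr1:182954788-182976044, plus strand), the flagellin receptor, had the largest fall of the 10 genes. Its levels were 45.3, 37.5 and 48.2 CPM in the sham libraries, 4.56, 9.56 and 10.5 CPM at 3 days, 28.7, 15.8 and 11.8 CPM at 7 days and 14.9, 10.3 and 8.91 CPM at 14 days. No injured library reached the lowest sham library, and 7 days replicate 1 was the highest of the injured. On the log2 scale Tlr5 fell by 2.38 ± 0.36 at 3 days (edgeR adjusted p = 0.000441), by 1.23 ± 0.34 at 7 days (adjusted p = 0.0371) and by 1.93 ± 0.35 at 14 days (adjusted p = 0.00376). Without sham replicate 4 the falls at 3 and 14 days remained past the threshold (-2.33 and -1.86), and the value at 7 days was -1.17 (adjusted p = 0.0577). The call at 7 days was also lost without 7 days replicate 3 (-1.13, adjusted p = 0.0939) or 7 days replicate 4 (-1.01, adjusted p = 0.116).

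Between times, Tlr5 was the 1 receptor gene of 10 that passed at 7 days against 3 days, beside 13.4% of all tested genes. It was 1.15 ± 0.35 higher on the log2 scale at 7 days (edgeR adjusted p = 0.0440), and its 3 libraries at 7 days lay above its 3 libraries at 3 days. That difference rests on single libraries: it was 0.72 (adjusted p = 0.210) without 7 days replicate 1, and the adjusted p lay between 0.0506 and 0.136 without any 1 of 3 days replicates 1, 2 and 3, 7 days replicate 3, 14 days replicates 1, 2 and 3 or sham replicate 3. At 14 days against 3 days no receptor gene passed in edgeR, beside 7.31% of all tested genes; 1 gene, Tlr9, had an unadjusted p under 0.05. At 14 days against 7 days none passed, beside 2.19% of all tested genes, and 0 had an unadjusted p under 0.05. DESeq2 also called 0 of 10 at 14 days against 3 days, beside 2023 of 18451 genes, and 0 of 10 at 14 days against 7 days, beside 1087 of 18451 genes.

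Markers of border-associated macrophages, the macrophages of meninges and perivascular spaces, were read beside Tlr5. Of 7 tested markers of that list, 4 fell at 3 days, 2 at 7 days and 6 at 14 days against sham, and none rose. The 8 markers summed to 128 to 256 CPM at 3 days, 165 to 526 CPM at 7 days and 121 to 250 CPM at 14 days, against 406 to 840 CPM in sham. The 840 CPM came from sham replicate 4, and sham replicates 2 and 3 had 492 and 406 CPM. The injured library with the highest Tlr5, 7 days replicate 1, also had the highest marker sum of the injured libraries (526 CPM). Its marker sum was above those of sham replicates 2 and 3, while its Tlr5 (28.7 CPM) was below every sham library. Mrc1, the mannose receptor, and Cd163, the haemoglobin scavenger receptor, made up most of the sum, at 187 to 377 CPM and 84.6 to 191 CPM in sham, while Folr2 was at 0.892 CPM or less in every library. The sum of the 7 microglial identity genes was also lower at 3 and 14 days than in every sham library, and 7 days replicate 1 was again the highest injured library (4189 CPM). In every injured library the B-cell sum was lower than in every sham library. Its highest injured library was 7 days replicate 1 (272 CPM). The neuron sum at 3 and 7 days was also lower than in every sham library. Further values are given among the other cell types. The part of these cells in the Tlr5 result was not tested.

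**Figure D2:**
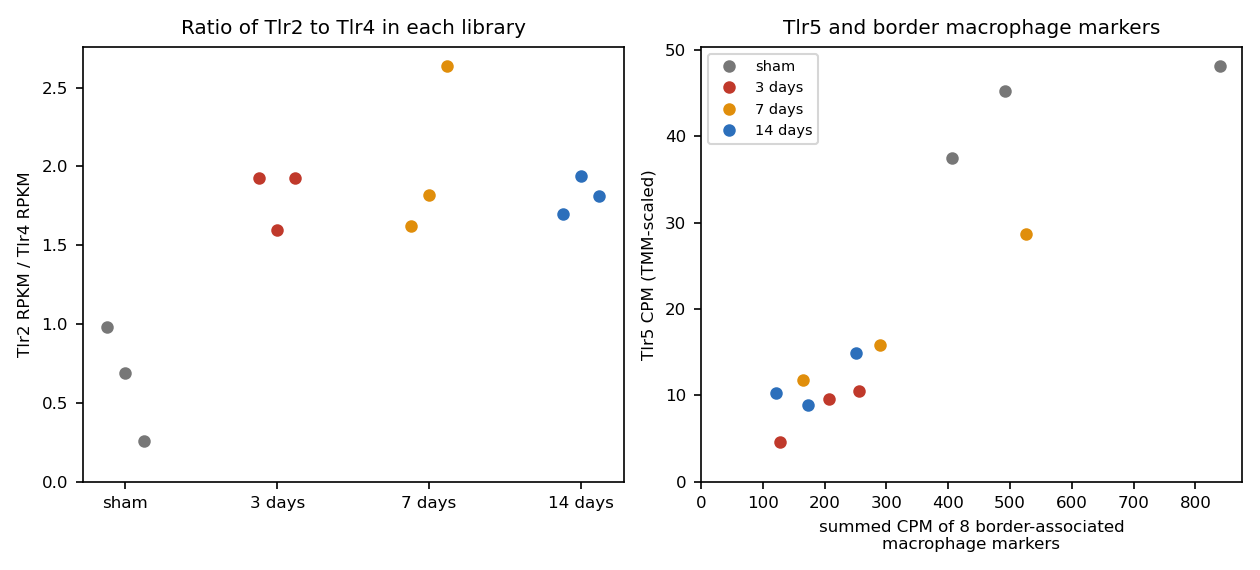
Left, ratio of Tlr2 RPKM to Tlr4 RPKM in each library (y axis, linear from 0) for sham, 3, 7 and 14 days; the ratio is below 1 in the 3 sham libraries and 1.60 or more in the 9 injured libraries. Right, Tlr5 in CPM (y axis) against the summed CPM of 8 border-associated macrophage markers (x axis), 1 point per library coloured by group; the 3 sham libraries hold the highest Tlr5 values (37.5 to 48.2 CPM), and 7 days replicate 1 is the highest of the injured libraries on both axes.

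Tlr3 (ENSMUSG00000031639; chr8:45395665-45411080, minus strand), the endosomal receptor for duplex RNA, signals through Ticam1. It was at 128.7, 107.2 and 241.9 CPM in sham, 103.0, 85.6 and 110.3 CPM at 3 days, 93.4, 97.7 and 66.3 CPM at 7 days and 67.5, 79.0 and 73.1 CPM at 14 days. Sham replicate 4 was far above the other sham libraries, and all libraries at 7 and 14 days were below all sham libraries. The log2 fold change was -0.67 ± 0.26 at 3 days (edgeR adjusted p = 0.0761), -0.89 ± 0.26 at 7 days (adjusted p = 0.0422) and -1.12 ± 0.26 at 14 days (adjusted p = 0.0141). Without sham replicate 4 these were -0.28 (adjusted p = 0.315), -0.47 (adjusted p = 0.147) and -0.71 (adjusted p = 0.0196), so of the 2 falls the one at 14 days remained past the threshold. The value at 3 days passed without sham replicate 2 (-0.83, adjusted p = 0.0396) or sham replicate 3 (-0.92, adjusted p = 0.0197), and with no filter on low counts (-0.64, edgeR adjusted p = 0.0269). The call at 7 days was lost in 14 of 21 alternatives and the call at 14 days in 4 of 21, among them 14 days replicate 1 left out (adjusted p = 0.0708) and 14 days replicate 3 left out (adjusted p = 0.0644). The antisense gene Gm45542 shares 381 exon bases with Tlr3 and had 0 to 11 counts per library, against 328 to 1148 counts of Tlr3; the strand setting of the counting is not given in the sources used here, so reads of the pair may not be separable.

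Tlr7 (ENSMUSG00000044583; chrX:167304929-167330558, minus strand), a sensor of single-stranded RNA, was the highest of the 10 genes per length in all 4 groups. Its libraries held 410.7, 295.1 and 864.5 CPM in sham, 318.4, 353.0 and 375.3 CPM at 3 days, 306.9, 522.5 and 242.6 CPM at 7 days and 258.6, 360.7 and 277.8 CPM at 14 days. Injured and sham libraries overlapped at each time, and sham replicate 4 was the highest of all 12. Log2 fold changes were -0.58 ± 0.33, -0.55 ± 0.33 and -0.81 ± 0.33 at 3, 7 and 14 days (edgeR adjusted p = 0.229, 0.305 and 0.139), and -0.05, 0.01 and -0.26 without sham replicate 4. Without sham replicate 3, the lowest sham library, the value at 14 days was -1.09 (edgeR adjusted p = 0.0409). With no filter on low counts Tlr7 passed at 3 days (-0.54, adjusted p = 0.0347) and 14 days (-0.76, adjusted p = 0.00169). Tlr7 exceeded 99.3% of tested genes in sham by mean RPKM.

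Tlr8 (ENSMUSG00000040522; chrX:167242696-167264329, minus strand), its close relative, lies 40599 bases from Tlr7. It was low throughout: 6.96, 5.94 and 18.5 CPM in sham, 6.38 to 9.71 CPM at 3 days, 4.15 to 10.2 CPM at 7 days and 5.57 to 7.71 CPM at 14 days, from 25 to 79 counts per library. The groups overlapped, and the log2 fold changes of -0.38 ± 0.43, -0.54 ± 0.44 and -0.58 ± 0.44 turned positive without sham replicate 4 (0.26, 0.11 and 0.08). Across all 12 libraries the ratio of Tlr7 to Tlr8 in RPKM stayed between 30.8 and 51.8. The ratio was 31.9 to 43.9 at 3 days, 39.0 to 51.4 at 7 days and 30.8 to 43.8 at 14 days, against 41.1 to 51.8 in sham, so the groups overlapped.

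Tlr9 (ENSMUSG00000045322; chr9:106222598-106226883, plus strand), the sensor of unmethylated CpG DNA, was at 39.8, 65.4 and 81.5 CPM in sham, 40.8, 52.9 and 46.6 CPM at 3 days, 61.0, 45.1 and 66.6 CPM at 7 days and 65.3, 83.7 and 73.7 CPM at 14 days. Injured libraries overlapped sham at each time, with log2 fold changes of -0.40 ± 0.24, -0.11 ± 0.24 and 0.26 ± 0.24. Its libraries at 14 days lay above those at 3 days, a log2 difference of 0.66 ± 0.24 (edgeR adjusted p = 0.114, and 0.0368 without sham replicate 2 or 0.0394 without sham replicate 4). Without sham replicate 2, the lowest sham library, the value at 3 days against sham was -0.67 (adjusted p = 0.0366). The ratio of Tlr7 to Tlr9 in RPKM was 3.85 to 9.04 in sham. It was 5.68 to 6.86 at 3 days and 3.10 to 9.87 at 7 days, overlapping sham. At 14 days it was 3.21 to 3.67, below sham. With 3 libraries a group, an exact permutation test of this ratio cannot go below p = 0.1.

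Tlr13 (ENSMUSG00000033777; chrX:106143204-106160493, plus strand) recognises bacterial ribosomal RNA in mice. It varied between 97.4 and 150.8 CPM in sham, 138.3 and 144.6 CPM at 3 days, 108.5 and 185.8 CPM at 7 days and 112.1 and 161.1 CPM at 14 days. Its log2 fold changes of 0.14 ± 0.22, 0.18 ± 0.22 and 0.02 ± 0.22 were all within 1 SE of 0. Tlr7, Tlr8 and Tlr13 are X-linked, and with the Y-linked sum of each library in the model none of them passed at any time (for Tlr7 at 14 days -0.84, edgeR adjusted p = 0.135).

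**Figure D3:**
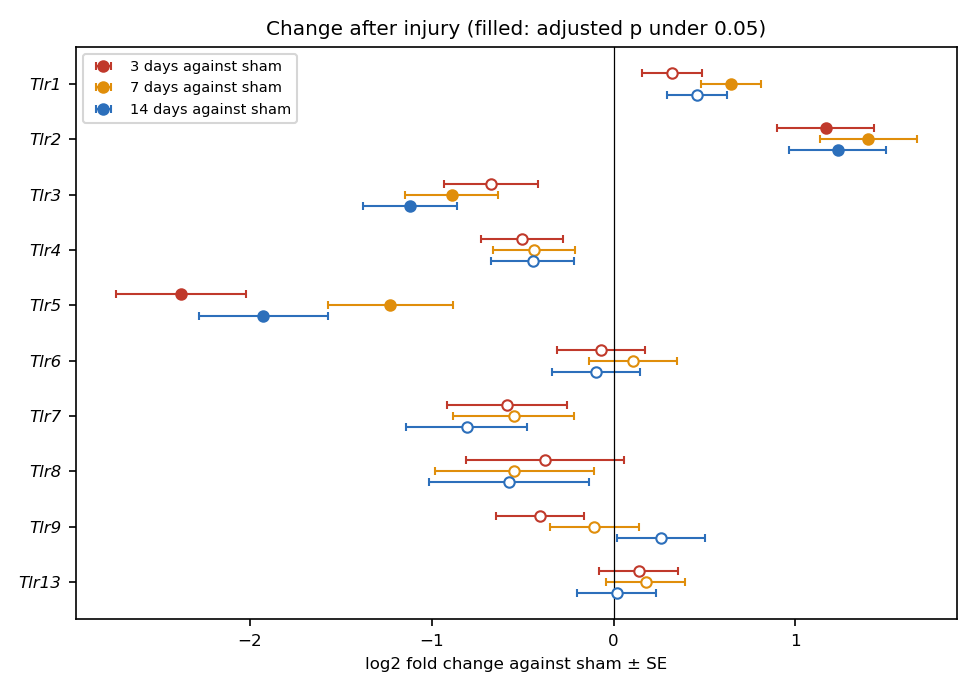
Log2 fold change against sham (x axis) with SE bars for each of the 10 genes (rows) at 3, 7 and 14 days after injury; filled points have an edgeR adjusted p under 0.05. Tlr2 lies at 1.17, 1.40 and 1.23 with all 3 points filled, Tlr5 at -2.38, -1.23 and -1.93 with all 3 filled, and the 6 genes with no filled point lie between -0.81 and 0.26.

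Counted by libraries that do not overlap, 3 of 10 genes were apart from sham at 3 days (Tlr2, Tlr4 and Tlr5), beside 34.2% of all tested genes. The count was 4 of 10 at 7 days (Tlr1, Tlr2, Tlr3 and Tlr5), beside 22.8%, and the same 4 genes at 14 days, beside 29.7%.

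Per length, Tlr7, Tlr1 and Tlr13 held ranks 1 to 3 in every group. In sham the mean RPKM was 120.2 ± 60.1 for Tlr7 (SD, n = 3), 33.8 ± 6.8 for Tlr1, 30.1 ± 4.4 for Tlr13, 28.9 ± 10.9 for Tlr3, 17.3 ± 5.7 for Tlr9, 15.3 ± 4.5 for Tlr4, 8.74 ± 3.31 for Tlr2, 8.74 ± 0.29 for Tlr5, 7.85 ± 1.33 for Tlr6 and 2.73 ± 1.62 for Tlr8. Neighbours in this order overlapped except Tlr7 over Tlr1, Tlr3 over Tlr9, Tlr4 over Tlr2 and Tlr6 over Tlr8. Tlr2 moved to rank 4 at 3, 7 and 14 days, with 20.4 ± 2.8, 23.6 ± 7.6 and 22.6 ± 2.7 RPKM, where it overlapped Tlr3 at 3 days, Tlr13 and Tlr9 at 7 days and Tlr9 at 14 days. Tlr5 was at rank 8 in sham and was last at 3 days, with 1.69 ± 0.64 RPKM, overlapping Tlr8 at 2.19 ± 0.46 RPKM. Tlr7 took 35.6%, 32.6% and 31.2% of the summed RPKM of the 10 genes at 3, 7 and 14 days, against 42.3% in sham, where its libraries spanned 34.5% to 52.0%. The Tlr13 value uses a length of 4086 bases in the deposited table, against 4304 exon bases in GENCODE M21; the lengths of the other 9 genes are the same in both.

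**Figure D4:**
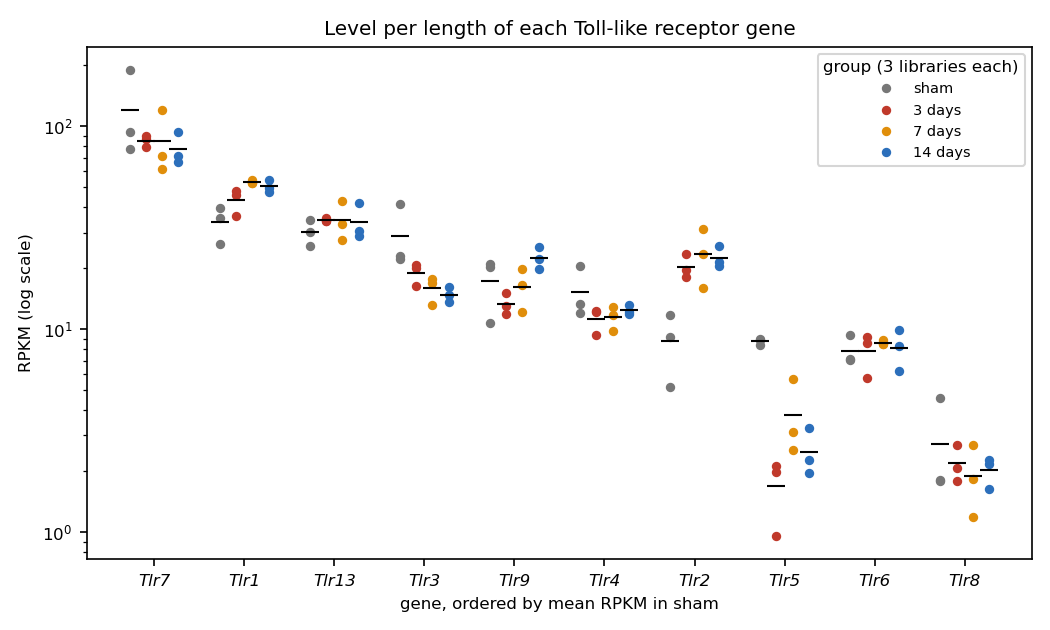
Deposited RPKM (y axis, log scale) of each Toll-like receptor gene (x axis, ordered by mean in sham), with 1 point per library and a black bar at each group mean, for sham, 3, 7 and 14 days from left to right within a gene. Tlr7 has the highest mean in every group (120.2 RPKM in sham), and Tlr8 the lowest except at 3 days, where Tlr5 is lowest (1.69 RPKM).

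By Pearson's r of log2 CPM over the 12 libraries, among 9342 genes with a mean of at least 10 CPM, the genes most like Tlr2 were Slc38a7 (r = 0.965, Spearman's rho = 0.804) and Pygl (r = 0.961, rho = 0.825). Most like Tlr1 were Rap2b (r = 0.926, rho = 0.783) and Pdgfa (r = 0.913, rho = 0.860). For Tlr3 they were Apc (r = 0.971, rho = 0.930) and Emsy (r = 0.960, rho = 0.909), and for Tlr5 Itga9 (r = 0.963, rho = 0.867) and Tanc2 (r = 0.945, rho = 0.846). These values describe a likeness over libraries that share group and depth, and carry no test.

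Partners and downstream genes of the receptors were read from lists chosen with earlier results of these data known. Their counts are to be read beside the shares of all tested genes, which were 10.9% higher and 9.17% lower at 3 days, 4.61% higher and 4.67% lower at 7 days, and 5.02% higher and 4.79% lower at 14 days. Of 8 co-receptors and ligand carriers, 1 rose and none fell at each time, which at 3 days is near the share of all tested genes. Lbp, the lipopolysaccharide-binding protein, rose at 3 days (1.98 ± 0.52, edgeR adjusted p = 0.0163) and 14 days (2.41 ± 0.52, adjusted p = 0.0101) at a low level, 3.42 to 3.94 CPM at 3 days and 3.74 to 6.46 CPM at 14 days, against 0.280 to 1.21 CPM in sham. Ly86, the partner of Cd180, rose at 7 days (0.72 ± 0.20, adjusted p = 0.0395), with 169.1 ± 36.8 CPM at 7 days and 102.7 ± 3.1 CPM in sham (SD, n = 3 each). Tlr11 and Tlr12, receptors of protozoan profilin in mice, did not pass at any time and held 1.82 to 5.46 CPM and 3.07 to 13.2 CPM.

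Among 16 genes of receptor folding, trafficking and processing, 4 rose at 3 days, 2 at 7 days and 4 at 14 days, and 1 fell, at 14 days. Ctsb, Ctsl and Ctss encode lysosomal cysteine proteases, which are among the enzymes that cleave endosomal Toll-like receptors. Ctsb rose by 1.53 ± 0.22, 1.31 ± 0.22 and 1.91 ± 0.22 on the log2 scale at 3, 7 and 14 days (edgeR adjusted p = 0.000261, 0.00245 and 0.000105). Ctsl rose by 1.34 ± 0.34, 1.29 ± 0.34 and 1.45 ± 0.34 at the same times, and Ctss by 1.22 ± 0.23 at 14 days (adjusted p = 0.00434). Pld3, a lysosomal nuclease, rose by 0.91 ± 0.22 at 3 days and 1.32 ± 0.23 at 14 days. Its relative Pld4, of the same list, did not share this rise and was named after its values were seen. Pld4 averaged 243.4 ± 29.2, 280.2 ± 11.5 and 144.7 ± 4.8 CPM at 3, 7 and 14 days, against 289.8 ± 154.7 CPM in sham (SD). The sham libraries of Pld4 spanned 131.9 to 440.9 CPM and overlapped those at 14 days (140.3 to 149.8 CPM). Unc93b1, the chaperone that carries endosomal receptors out of the endoplasmic reticulum, did not pass, with 377.6 to 472.8 CPM at 3 days, 316.1 to 480.3 CPM at 7 days and 323.5 to 353.3 CPM at 14 days, against 319.2 to 423.8 CPM in sham; it was named after its values were seen.

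Of 7 TIR adaptors 1 rose, at 3 days: Pik3ap1, which links receptors to phosphoinositide kinase signalling (0.70 ± 0.21, edgeR adjusted p = 0.0311). Myd88 and Ticam1, named here for their role after their values were seen, did not pass at any time; Myd88 averaged 16.9 ± 4.7, 13.2 ± 2.1 and 9.01 ± 1.11 CPM at 3, 7 and 14 days, against 12.9 ± 5.6 CPM in sham. Of 17 kinases and ubiquitin ligases, 2 rose and 3 fell at 3 days, 2 rose at 7 days, and 2 rose and 2 fell at 14 days; the count higher at 3 days is near the 10.9% of all tested genes. Ikbke, a kinase upstream of interferon regulatory factors, rose by 2.35 ± 0.28, 3.35 ± 0.28 and 2.60 ± 0.28 at 3, 7 and 14 days (edgeR adjusted p = 6.59e-05, 2.13e-05 and 5.90e-05). Irak2, a kinase of the Myd88 complex, rose at 7 days (0.97 ± 0.17) and 14 days (0.84 ± 0.17). Ikbkb, which phosphorylates the NF-kB inhibitor, fell at 3 days (-0.63 ± 0.14), and Tab2, a partner of Map3k7, fell at 3 days (-0.66 ± 0.18) and 14 days (-0.77 ± 0.18).

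Of 12 inhibitors, 2 rose and 1 fell at 3 days, 1 rose at 7 days and 2 rose at 14 days, counts called in either direction that at 3 and 7 days are near the 20.0% and 9.28% of all tested genes. Tnfaip3, a ubiquitin-editing inhibitor of NF-kB, rose at 7 days (0.94 ± 0.24) and 14 days (0.96 ± 0.24), and Zc3h12a, a ribonuclease that degrades cytokine messages, at 3 days (1.22 ± 0.34) and 14 days (1.23 ± 0.34). Il1rl1, the receptor of interleukin 33, fell at 3 days (-1.33 ± 0.29, edgeR adjusted p = 0.00507). Sigirr rose at 3 days (adjusted p = 0.0418) from very few counts, at 1.21 to 4.52 CPM at 3 days against 0 to 0.757 CPM in sham. Of 9 transcription factors 2 rose at each time and none fell: Irf7 by 2.71 ± 0.25, 2.21 ± 0.25 and 1.23 ± 0.25, and Irf8 by 0.65 ± 0.20, 0.90 ± 0.20 and 0.77 ± 0.20 at 3, 7 and 14 days.

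Of 13 cytokine and enzyme outputs 7 had enough counts to be tested, which is a count over detected genes and not over all outputs. Of the 7, 5 rose at 3 days, 4 at 7 days and 5 at 14 days, and 1, Il6, fell at each time. In sham Ptgs2 was at 0 to 1.12 CPM, Cxcl10 at 0.757 to 3.08 CPM and Tnf at 1.68 to 3.66 CPM. Genes this low in sham can pass the filter on counts through their injured libraries, and could then hardly be called lower. The counts that rose are therefore no evidence about the outputs as a set. Tnf averaged 19.1 ± 2.1, 11.8 ± 3.0 and 7.33 ± 0.35 CPM at 3, 7 and 14 days, against 2.59 ± 1.00 CPM in sham (SD, n = 3 each), log2 fold changes of 2.87 ± 0.33, 2.17 ± 0.33 and 1.48 ± 0.34. The chemokines Cxcl10 (4.19 ± 0.40, 3.44 ± 0.40 and 2.94 ± 0.41) and Ccl3 (2.45 ± 0.23, 2.00 ± 0.23 and 2.55 ± 0.23) rose at all 3 times. Il6 held 0.576 to 1.14 CPM at 3 days, 1.74 to 3.14 CPM at 7 days and 3.47 to 4.90 CPM at 14 days, against 9.83 to 15.6 CPM in sham, and fell by 4.08 ± 0.44, 2.28 ± 0.39 and 1.65 ± 0.38 on the log2 scale (edgeR adjusted p = 3.30e-05, 0.00318 and 0.0133).

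**Figure D5:**
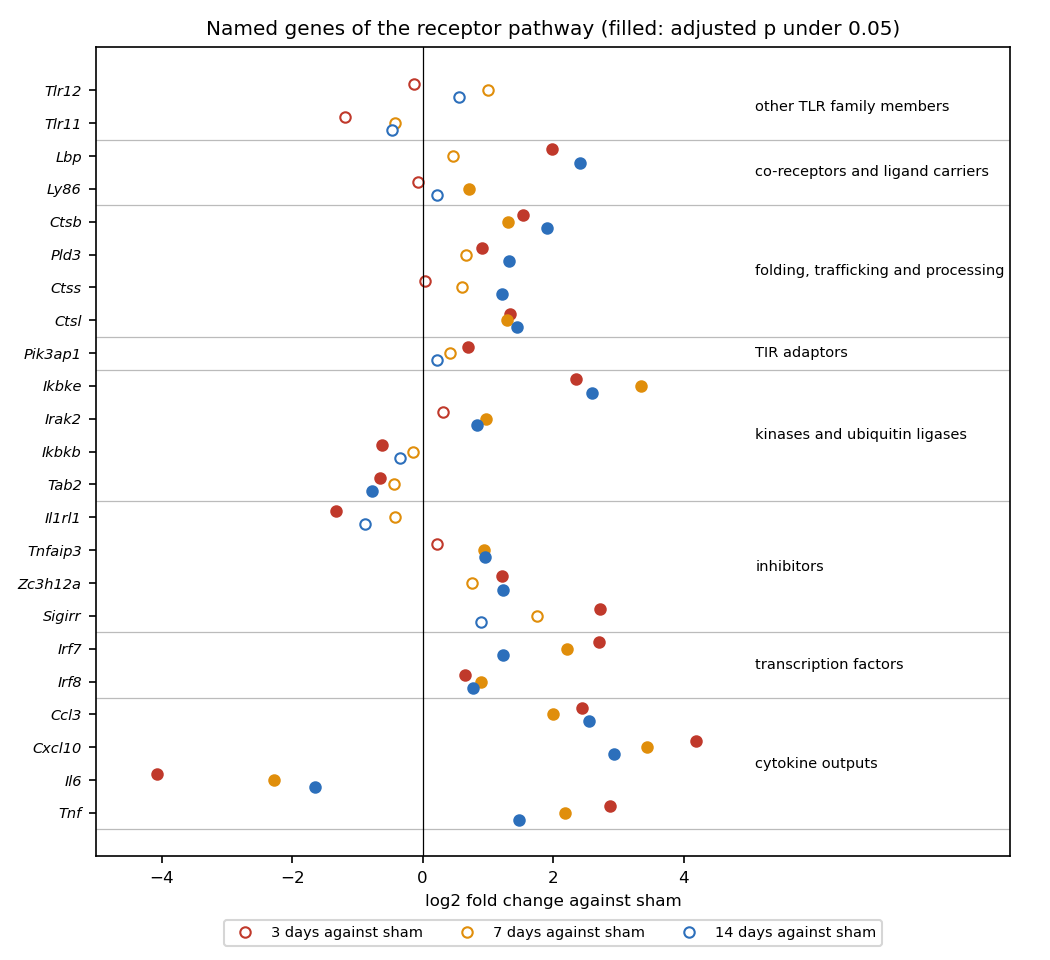
Log2 fold change against sham (x axis) of the genes named from the lists of partners, processing enzymes, adaptors, kinases, inhibitors, transcription factors and outputs (rows) at 3, 7 and 14 days; filled points have an edgeR adjusted p under 0.05. Ikbke, Ctsb, Ctsl, Irf7, Irf8, Ccl3, Cxcl10 and Tnf are filled and to the right of 0 at all 3 times, and Il6 is filled and to the left at all 3 times (-4.08, -2.28 and -1.65).

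Other cell types were read in the same libraries. Of 10 tested markers of monocyte-derived macrophages, 5 rose at 3 days, 2 rose at 7 days, and 3 rose and 2 fell at 14 days. The 12 markers of the list summed to 1358 to 1813 CPM at 3 days, 407 to 723 CPM at 7 days and 872 to 969 CPM at 14 days, against 252 to 469 CPM in sham. The sum was led by Fn1, with 775 to 1260 CPM at 3 days, while Ly6c2, a defining monocyte gene, was at 2.31 CPM or less in every library. Their part in the Tlr2 rise was not tested. The 10 neutrophil markers summed to 956 to 1170 CPM at 3 days, 747 to 1157 CPM at 7 days and 832 to 978 CPM at 14 days, against 602 to 723 CPM in sham. Nearly all of it was Csf3r, the receptor of granulocyte colony-stimulating factor, at 937 to 1161 CPM at 3 days against 594 to 716 CPM in sham, and Csf3r was the 1 of 4 tested markers that rose, at 3 days. Ly6g and S100a8, which define neutrophils, were at 0.446 CPM or less and 3.98 CPM or less in every library. Of the B-cell list 9 markers summed to 169 to 232 CPM at 3 days, 140.0 to 272 CPM at 7 days and 145 to 171 CPM at 14 days, against 309 to 703 CPM in sham. Of 3 tested, 2 fell at 3 days, 3 at 7 days and 2 at 14 days. The sum was led by Ighm, the immunoglobulin heavy chain of IgM, at 131 to 172 CPM at 3 days, 114 to 221 CPM at 7 days and 97.7 to 124 CPM at 14 days, against 229 to 552 CPM in sham, while Ms4a1, a defining B-cell gene, was at 1.12 CPM or less in every library. Of 10 neuron markers, 8 fell at 3 days, 7 at 7 days and 2 at 14 days, and their sum was 821 to 965 CPM at 3 days, 943 to 1252 CPM at 7 days and 1215 to 1766 CPM at 14 days, against 1755 to 3404 CPM in sham. The 9 T and NK cell markers summed to 7.80 CPM or less in every library. Endothelial markers summed to 291 to 649 CPM at 3 days, 55.5 to 73.1 CPM at 7 days and 376 to 383 CPM at 14 days, against 45.3 to 170 CPM in sham. Of 11 endothelial markers tested, 10 rose at 3 days, 1 fell at 7 days and 5 rose at 14 days against sham. At 7 days against 3 days all 11 fell. The 10 astrocyte markers summed to 628 to 5114 CPM in sham and 1420 to 2289 CPM at 3 days. They summed to 1650 to 2068 CPM at 7 days and 2297 to 2687 CPM at 14 days. Of the 10, 2 rose at 3 days, 1 fell at 7 days and 4 rose at 14 days. Fibroblast and pericyte markers summed to 71.0 to 533 CPM in sham and 394 to 974 CPM at 3 days. At 7 and 14 days these were 71.6 to 181 CPM and 638 to 756 CPM. Of 11 tested, 3 rose at 3 days, 2 at 7 days and 2 at 14 days. In sham dendritic cell markers summed to 98.8 to 111 CPM and oligodendrocyte markers to 845 to 1553 CPM. Dendritic cell sums were 104 to 128, 113 to 145 and 76.2 to 93.8 CPM at 3, 7 and 14 days. Oligodendrocyte sums were 924 to 1311.5, 587 to 899 and 883 to 1300 CPM at the same times. The part of these cell types in the receptor values was not tested.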

How the data were processed

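Microglial nuclear RNA was measured in 12 libraries, 3 in each of 4 groups. The authors deposited whole-number read counts per Ensembl gene; with aligner and strand setting not given in the sources used here, featureCounts 1.4.6-p3 and the GRCm38 (mm10) build are named in the submitters' processing notes. The deposited RPKM values equal count divided by gene length and library total (largest relative difference 8.2e-15), with no further scaling.

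Counts were filtered with filterByExpr (18451 of 49585 genes, 99.6% of counts), scaled by TMM and fitted over all 12 libraries with edgeR 4.0.16 in R 4.3.3. Its quasi-likelihood test was adjusted by Benjamini-Hochberg over the whole set, with a threshold of 0.05; the common biological coefficient of variation was 0.271. CPM values are TMM-scaled, and errors of fold changes are SE. Levels of different genes were compared in RPKM only. The fits were repeated with DESeq2 1.42.0, with its size factors in edgeR, with no filter, with a stricter filter (1 CPM in 3 libraries and a mean of 5 CPM), with a replicate block, on only the 2 groups compared, by limma 3.58.1 on log2 RPKM (1 or 0.1 added), with the Y-linked sum as a covariate and with each library left out. The scripts were tested on simulated data. Positions are from GENCODE M21 and promoters from RefSeq.

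The 10 receptors and all lists were chosen with earlier results of these data known. All 10 receptors are named; from each list of partners up to 4 genes past the threshold against sham with the smallest adjusted p are named, or else 2 with the highest mean CPM, and for each changed receptor the 2 genes with the highest correlation. No library pair of a group agreed within sampling noise (chi-square per degree of freedom 4.76 or more). Of the microglia and B-cell marker lists 1 gene each is not reported here and is left out of the sums and counts. P-values set group differences against the spread between pools of 3 animals, which was estimated over all 12 libraries.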

Additional observations from a re-analysis of the deposited data

Results flagged for a closer look

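The change of Tlr5 against sham differed between 7 and 3 days by 1.15 ± 0.35 on the log2 scale (SE, edgeR quasi-likelihood adjusted p = 0.0440), in a direct test between the 2 times. Tlr5 was at 28.7, 15.8 and 11.8 CPM at 7 days, against 4.56, 9.56 and 10.5 CPM at 3 days, so 3 of 3 libraries at 7 days were above those at 3 days. Without 7 days replicate 1 the difference was 0.72 (edgeR adjusted p = 0.210). Of the injured libraries, that library also held the highest sum of border-associated macrophage markers (526 CPM). That sum was above those of sham replicates 2 and 3 (492 and 406 CPM). The same library was the highest injured one for the 7 microglial identity genes (4189 CPM) and the B-cell markers (272 CPM). The part of these cells was not tested.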

How the results depend on the processing

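The alternatives gave 945 values for 45 pairs of a receptor and a comparison. Of these, 870 kept their direction and their side of the threshold, 43 lost their call, 12 gained one and 20 changed sign. Most pairs did not pass in the reported fit, and a call could be lost only in the pairs that did. Between times, only receptors called in a test or with an edgeR unadjusted p under 0.05 between times were followed. The Tlr2 and Tlr5 calls at 3 and 14 days held in all 21 alternatives, and the Tlr2 call at 7 days was lost in 1, the fit of only the 2 groups (1.37, edgeR adjusted p = 0.0775). The number of receptors called at 3 days against sham was 4 with no filter on low counts and 2 to 4 without any 1 library. At 7 days against sham it was 2 with a replicate block, 0 with only the 2 groups, 2 with limma on log2 RPKM + 0.1 and 1 to 4 without any 1 library. At 7 days against 3 days it was 0 with a replicate block and 0 with limma on log2 RPKM + 1 or + 0.1, and 0 to 1 without any 1 library. At 14 days against 3 days it was 2 with only the 2 groups (Tlr3 and Tlr9) and 0 to 1 without any 1 library. The test of any difference called 2 with the replicate block. Whether the replicate numbers pair the samples was not settled. The deviations of same-numbered libraries correlated at -0.298 to 0.0693, but differently numbered libraries were not compared. With a replicate block, 3276 genes were called at 7 days against 3 days, against 2466 as reported. At 14 days against 7 days 1608 were called, against 404 as reported, and in the other comparisons fewer than reported. The cause of these changes was not tested.

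Signs turned in comparisons that did not pass in the reported fit. For Tlr6 at 14 days the value was 0.0356 with limma on log2 RPKM + 1 and 0.0382 with + 0.1, and for Tlr13 at 14 days -0.0192 with the replicate block. Without any 1 library, against sham, the ranges were for Tlr6 -0.232 to 0.0840 at 3 days, -0.0599 to 0.280 at 7 days and -0.242 to 0.0727 at 14 days, for Tlr7 -0.933 to 0.00799 at 7 days, for Tlr8 -0.682 to 0.260 at 3 days, -0.916 to 0.109 at 7 days and -0.849 to 0.0756 at 14 days, for Tlr9 -0.355 to 0.132 at 7 days, and for Tlr13 -0.0541 to 0.244 at 3 days, -0.0427 to 0.318 at 7 days and -0.147 to 0.135 at 14 days. For Tlr2 at 14 days against 7 days the range was -0.369 to 0.0698. Limma on log2 RPKM + 0.1 moved the median of all genes at 14 days against sham to 0.13, while the edgeR median was -0.05. The lowest counts per library were those of Tlr5 (20 to 299) and Tlr8 (25 to 79), which limit the precision of both genes.

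Over all genes, the count called at 7 days against sham was 172 with only the 2 groups, 2610 with DESeq2, 2889 with no filter, 1137 with limma on log2 RPKM + 1 and 1069 with + 0.1, against 1712 as reported. The shares of all genes rest on single libraries too. Without any 1 library the count called was 1866 (without 3 days replicate 3) to 4152 at 3 days against sham, 827 (without 7 days replicate 1) to 3065 (without sham replicate 2) at 7 days and 701 (without 14 days replicate 3) to 2793 at 14 days. It was 564 (without 3 days replicate 3) to 4539 at 7 days against 3 days, 435 (without 3 days replicate 3) to 2627 at 14 days against 3 days, and 1 (without 14 days replicate 1) to 1774 at 14 days against 7 days. The highest counts for which no library is named came without sham replicate 4.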
